A study of Mus musculus with 8 samples.

Results

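Trophectoderm genes were read in 8 clones of mouse induced pluripotent stem cells (iPS cells), 4 derived with ascorbic acid (vitamin C) in the medium and 4 derived without it. The set holds 10 genes chosen by name: the transcription factors Tead4, Cdx2, Gata3, Eomes, Elf5, Tfap2c and Hand1 and the keratins Krt8, Krt18 and Krt19. Every probe set annotated to exactly 1 of these symbols was taken, which gave 19 of the 45037 probe sets on the array that are not controls, and the 10 genes are among 18193 with a probe set.

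The clones of both groups came from embryonic fibroblasts of Col-OKSM reprogrammable mice, in which doxycycline switches on Oct4, Sox2, Klf4 and c-Myc. Every clone grew on an irradiated fibroblast feeder layer, in medium that held serum, the cytokine LIF and doxycycline, and feeders were reduced by preplating before RNA was taken. Total RNA of each clone was hybridised to 1 Affymetrix mouse expression array, a chip that reads the 3' part of transcripts. The labels call the 4 clones of a group biological replicates without saying whether they came from separate embryos, so p-values here cover only the variation among these particular clones. Embryonic fibroblasts and feeders are the other cells the RNA could hold, and in such bulk RNA fewer cells of a type and less RNA per cell cannot be told apart.

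The trophectoderm is the outer epithelium of the blastocyst, which builds the placenta and is set apart from the inner cell mass that gives pluripotent cells. TEAD4, when its coactivator YAP is in the nucleus, switches on Cdx2 and Gata3 in outer cells, and Eomes, Elf5 and Tfap2c then hold the trophoblast stem cell state. Hand1 belongs to later giant cells, and keratins 8, 18 and 19 form the intermediate filaments of this simple epithelium. Oct4 and Nanog restrain the programme in pluripotent cells, and in mouse embryonic stem cells the Elf5 promoter is known to be methylated and silent.

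Signals of pluripotency markers were present in the clones, which fits their label. Pou5f1, which encodes Oct4, averaged 10295 ± 948 with and 11283 ± 292 without ascorbic acid (signal intensity, SD, n = 4 each), and Nanog averaged 8948 ± 891 with and 9709 ± 294 without it. All 11 pluripotency markers on the list used here passed the filter on low signals. Because doxycycline switches on Oct4 and Sox2 in these cells, Pou5f1 and Sox2 signals may hold RNA made under doxycycline. That share was not tested. Array medians lay between 134 and 156. Each gene was represented by its brightest probe set in a fit over 13129 genes, and a second fit covered every probe set; both used limma with Benjamini-Hochberg adjustment and a threshold of 0.05.

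None of the trophectoderm genes passed the test for a difference between the groups. The 7 genes bright enough for the gene fit were Tead4, Eomes, Tfap2c, Hand1, Krt8, Krt18 and Krt19, and 0 of them passed (limma, smallest adjusted p = 0.895), with 0 at an unadjusted p under 0.05. Over all genes 3 passed, or 0.0229%, and 5.87% had an unadjusted p under 0.05. Of the 19 probe sets 0 passed in the fit over all probe sets (limma, smallest adjusted p = 0.925), where 0.0244% of all probe sets did. One, a dim Hand1 probe set, had an unadjusted p under 0.05, against 5.37% of all probe sets. In 0 of the 19 did the groups lie fully apart, against 3.12% of all probe sets. Log2 differences, with minus without ascorbic acid, were above 0 in 2 and below 0 in 5 of the 7 genes, with a median of -0.086 beside -0.0038 over all tested genes; counts of 2 and 5 also came with quantile normalization and with median centring. That median rested on single clones: it was -0.162 without clone 3 with ascorbic acid and -0.000684 without clone 4 with it, -0.0326 without clone 2 and -0.00975 without clone 4 of the other group, and -0.0522 with median centring.

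**Figure D1:**
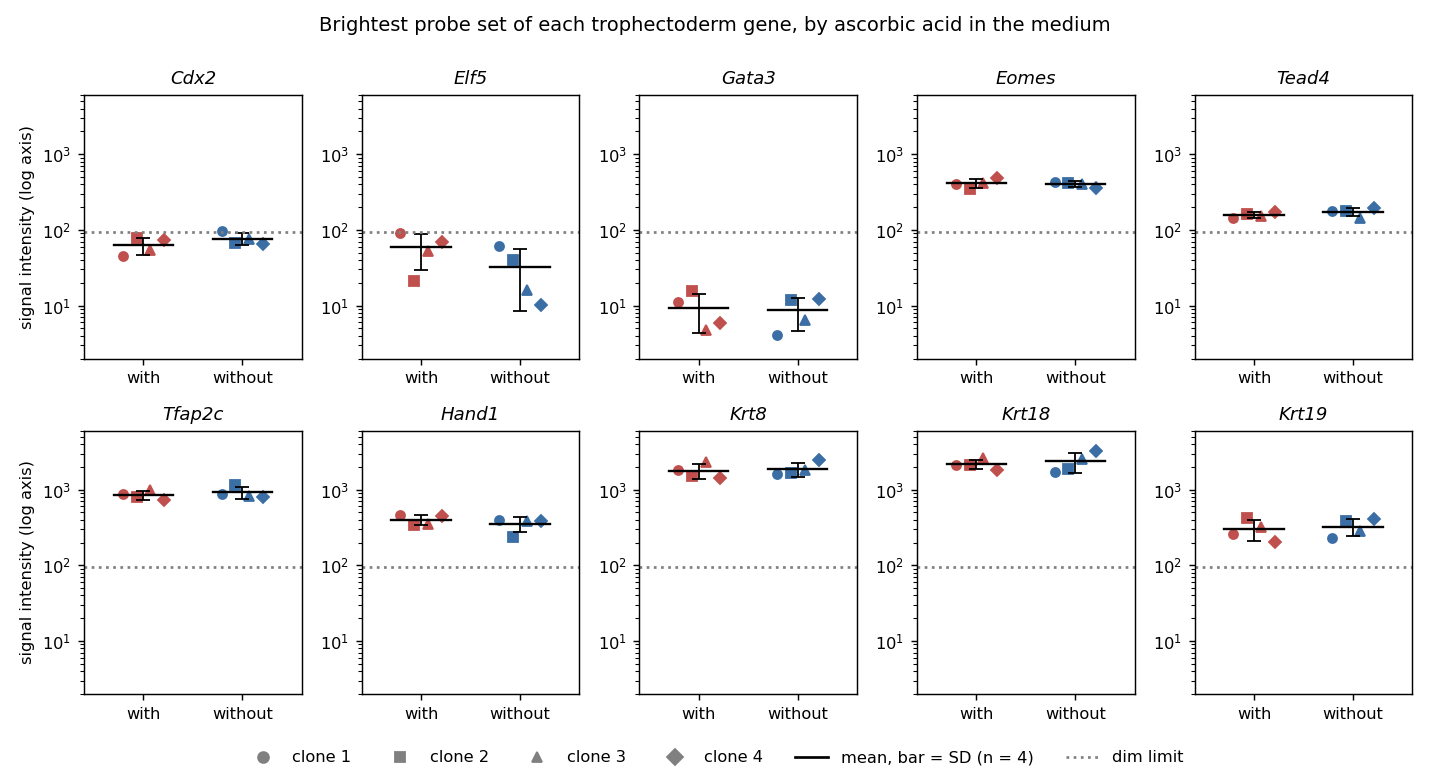
Signal intensity on a log axis for the brightest probe set of each of the 10 genes, with each clone as a point, the group mean as a line and the SD as a bar; the dotted line marks the dim limit of 94. Cdx2, Elf5 and Gata3 have group means below that line in both groups, the other 7 genes lie above it, and the clones of both groups overlap in every panel.

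The genes fell into a dim set and a measured set. Probe sets under a mean signal of 94 over the 8 arrays were taken as dim, and 7 of the 19 were. They include every probe set of Cdx2, Elf5 and Gata3, the trophectoderm factors that act next after TEAD4 or seal the trophoblast fate, and 1 each of Hand1 and Tead4. The brightest dim probe set was Cdx2 1422075_at, at a mean of 69.6, and the least bright of the other 12 was Tead4 1426337_a_at, at 166. Low signals on this array are partly background, so the values of the dim probe sets are no measure of how much RNA was there.

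TEAD4 is the DNA-binding partner of YAP at the top of the programme. Tead4 1426337_a_at read 144, 163, 152 and 173 in clones 1 to 4 with ascorbic acid, against 179, 177, 144 and 195 in clones 1 to 4 without it. The groups overlapped. Their means were 158 ± 12.5 with and 174 ± 21.6 without (SD, n = 4 per group), a log2 difference of -0.12 with a 95% interval of -0.44 to 0.20 (limma, adjusted p = 0.935). The dim Tead4 1460683_at ranged from 21.6 to 116 with and from 35.8 to 103 without, a spread between clones that the brighter probe set did not show.

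CDX2, the caudal-type homeodomain factor that commits outer cells to trophectoderm, was dim on both of its probe sets. Cdx2 1422075_at read 44.8, 78.9, 54.2 and 73.5 in the clones with ascorbic acid, against 95.7, 67.8, 75.7 and 65.8 in those without. Clone 1 without ascorbic acid was the highest and the only one above 94. The log2 difference was -0.24, with a 95% interval of -0.75 to 0.27 (probe set fit in limma, adjusted p = 0.959). Cdx2 1422074_at ranged from 3.67 to 6.70 with and from 3.96 to 10.5 without (log2 difference -0.20, adjusted p = 0.941 in limma over all probe sets). At such low signals the pseudocount set the size of the difference, which was -0.605 with a pseudocount of 1 and -0.0644 with one of 64.

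GATA3, a zinc-finger factor that acts beside CDX2, had 1 probe set, a dim one. Gata3 read 11.1, 15.7, 4.72 and 5.92 with ascorbic acid, against 4.11, 11.9, 6.43 and 12.3 without. Both groups held clones at the low and the high end, with means of 9.36 ± 5.07 with and 8.68 ± 4.05 without (SD, n = 4 per group). The log2 difference of 0.03 had a 95% interval of -0.40 to 0.46 (probe set fit in limma, adjusted p = 0.996).

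ELF5 is an ETS factor that keeps trophoblast stem cells in a loop with CDX2 and EOMES. Elf5 1419556_at read 90.3, 21.0, 53.5 and 69.6 with ascorbic acid, against 60.8, 40.5, 16.1 and 10.2 without. The higher mean with ascorbic acid, 58.6 ± 29.3 against 31.9 ± 23.3 (SD, n = 4 per group), lay within the spread of the clones, with a log2 difference of 0.67 and a 95% interval of -0.23 to 1.57 (probe set fit in limma, adjusted p = 0.937). The other probe set, Elf5 1419555_at, pointed the other way at -0.11, with 6.15 to 42.9 with and 7.74 to 42.1 without. The 2 probe sets also disagreed on the clones: 1419555_at was highest in clone 3 with ascorbic acid, while 1419556_at was highest in clone 1 with it.

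EOMES, a T-box factor of trophoblast stem cells that is also made in the primitive streak, was above the dim limit in every clone. Eomes 1435172_at read 406, 349, 419 and 479 with ascorbic acid, against 434, 421, 405 and 355 without. Clone 4 with ascorbic acid was the highest and clone 2 with it the lowest, so the group derived with ascorbic acid spanned the range of the other. The log2 difference was 0.03, with a 95% interval of -0.22 to 0.27 (limma, adjusted p = 0.979). The second probe set, Eomes 1426001_at, read 259 to 312 with and 255 to 333 without, at a log2 difference of -0.01. Clone 4 without ascorbic acid was lowest of its group on both probe sets, and clone 2 with it was lowest of its group on both.

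TFAP2C (AP-2 gamma) works in trophoblast and in germ cell precursors, and all 3 of its probe sets were above the dim limit. On the brightest, 1436392_s_at, Tfap2c read 875, 795, 989.5 and 731 with ascorbic acid, against 879, 1167, 834 and 796 without. Clone 2 without ascorbic acid stood above the other 7. The means were 848 ± 112 with and 919 ± 169 without (SD, n = 4 per group), a log2 difference of -0.11 with a 95% interval of -0.38 to 0.16 (limma, adjusted p = 0.928). Without that clone the log2 difference was 0.01.

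The other Tfap2c probe sets gave the same order for that clone. Tfap2c 1448977_at read 625, 632, 614 and 498 with ascorbic acid, against 559, 876, 588 and 602 without. Tfap2c 1418147_at read 564, 513, 686 and 515 with, against 587, 755, 591 and 594 without. In all 3 probe sets clone 2 without ascorbic acid was the highest of the 8, by 0.26 to 0.43 log2 above the mean of its group. Their log2 differences between the groups were -0.11, -0.13 and -0.15.

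HAND1, a basic helix-loop-helix factor of giant cells and of extraembryonic and cardiac mesoderm, showed the largest difference of the 7 genes in the gene fit. Hand1 1417525_at read 460.2, 345, 348 and 454 with ascorbic acid, against 400.2, 236, 389 and 385 without. Clone 2 without ascorbic acid was the lowest of the 8, and the other 3 of its group lay inside the range of the clones with ascorbic acid. The means were 402 ± 63.9 with and 353 ± 78.1 without (SD, n = 4 per group), a log2 difference of 0.20 with a 95% interval of -0.17 to 0.57 (limma, adjusted p = 0.895). With that clone left out it was 0.02.

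The dim Hand1 probe set gave the smallest p of the 19. Hand1 1448750_at read 57.4, 77.1, 70.0 and 11.5 with ascorbic acid, against 18.2, 17.4, 25.7 and 20.9 without. Clones 1, 2 and 3 with ascorbic acid were above all 4 without it, and clone 4 was below them all. The log2 difference was 0.80, with a 95% interval of 0.01 to 1.59, and did not pass (adjusted p = 0.925 in the probe set fit of limma; its unadjusted p was 0.0475). Without clone 4 with ascorbic acid the log2 difference was 1.20 and still did not pass (limma, adjusted p = 0.489), and with a pseudocount of 64 it was 0.441. That clone 4 read 454 on the brighter Hand1 probe set, among the highest values there.

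**Figure D2:**
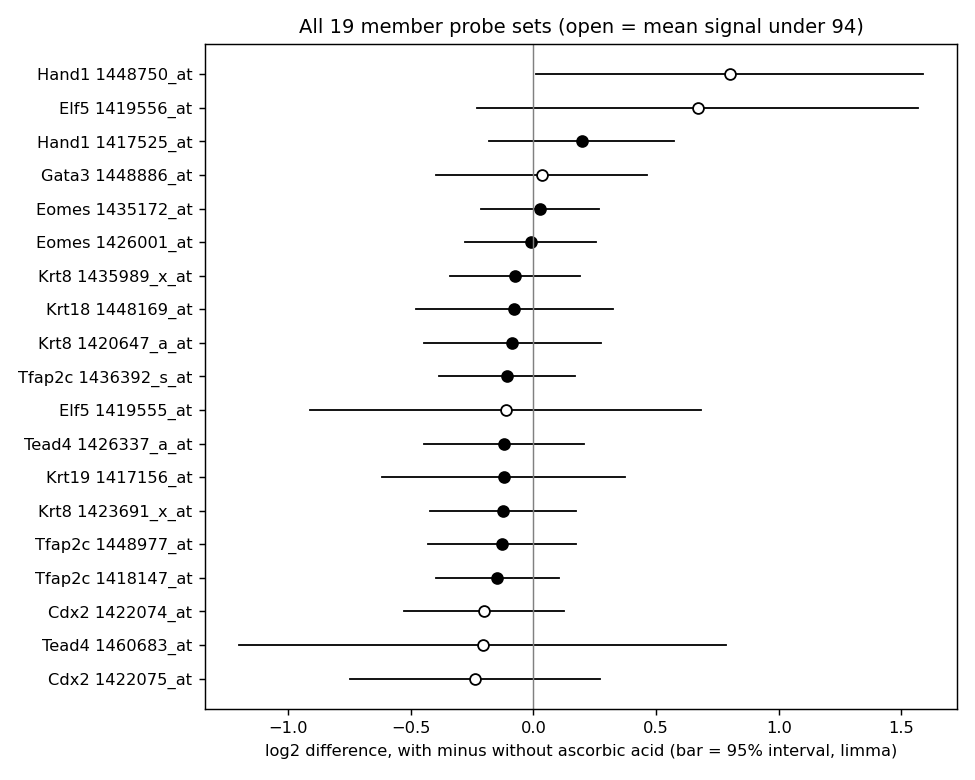
Log2 difference, with minus without ascorbic acid, for all 19 probe sets of the 10 genes; bars are 95% intervals from limma over all probe sets and open points have a mean signal under 94. The 12 filled points lie between -0.15 and 0.20, and the widest intervals belong to open points.

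Keratins 8, 18 and 19 are the epithelial filaments of the trophectoderm, and they are also made in endoderm and other simple epithelia. KRT8 is a type II keratin that pairs with the type I keratins KRT18 or KRT19 in each filament. On its brightest probe set, 1420647_a_at, Krt8 read 1803, 1522, 2340 and 1426 with ascorbic acid, against 1602, 1638, 1805 and 2458 without. The highest clone was without and the lowest with ascorbic acid, but the rest were mixed. The means were 1773 ± 410.4 with and 1876 ± 398 without (SD, n = 4 per group), a log2 difference of -0.09 with a 95% interval of -0.43 to 0.26 (limma, adjusted p = 0.958).

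Krt18, with 1 probe set, read 2141, 2141, 2581 and 1840 with ascorbic acid, against 1709, 1871, 2572 and 3282 without. The group without ascorbic acid held both the lowest and the highest clone. The means were 2176 ± 305 with and 2359 ± 721 without (SD, n = 4 per group), a log2 difference of -0.08 with a 95% interval of -0.46 to 0.30 (limma, adjusted p = 0.967). Krt19 read 257, 421, 317 and 205 with ascorbic acid, against 226, 385, 285 and 405 without. Its values overlapped in full, from 205 in clone 4 with ascorbic acid to 421 in clone 2 with it, and the log2 difference was -0.12 with a 95% interval of -0.60 to 0.36 (limma, adjusted p = 0.956).

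Spread over the clones was seen in keratins and transcription factors. The highest of the 8 clones exceeded the lowest 2.05-fold for Krt19, 1.95-fold for Hand1, 1.92-fold for Krt18, 1.72-fold for Krt8, 1.6-fold for Tfap2c, 1.37-fold for Eomes and 1.36-fold for Tead4, each on its brightest probe set. Within the groups it was 1.64-fold with and 1.54-fold without ascorbic acid for Krt8, 1.40-fold with and 1.92-fold without for Krt18, and 2.05-fold with and 1.79-fold without for Krt19.

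Krt8 and Krt18 had correlated signals over the clones on their brightest probe sets. Both were highest in clone 4 without ascorbic acid and next in clone 3 with it, as signals from each gene's own probe set. Across the 8 clones Pearson's r of the log2 signals was 0.86 (exact permutation test over all pairings, two-sided, p = 0.00456, adjusted p = 0.014 over 3 keratin pairs) and Spearman's rho was 0.81 (exact permutation, p = 0.022, adjusted p = 0.065). After subtraction of the group means r was 0.858. It was 0.931 among the 4 clones with ascorbic acid and 0.936 among the 4 without, as descriptions.

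That relation leaned on its extreme clones and on the probe set. Without the 2 clones farthest from the median of Krt8, clone 4 without and clone 3 with ascorbic acid, r was 0.608 over 6 clones (exact permutation, p = 0.186), so it no longer passed. With only the first of these left out, r was 0.744 (exact permutation, adjusted p = 0.133). With the other Krt8 probe sets r was 0.978 for 1423691_x_at (exact permutation, adjusted p = 0.000818) and 0.297 for 1435989_x_at (exact permutation, adjusted p = 0.473), both chosen after the data had been seen. Probe sets of the _x_at class can read several transcripts, and whether these do was not tested.

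Krt8 1423691_x_at read 1378, 1458, 1603 and 1225 with ascorbic acid, against 1247, 1335, 1713 and 1949.5 without, the same highest and lowest clones as the brightest Krt8 probe set. Krt8 1435989_x_at read 1092, 968, 854 and 869 with, against 798, 1049, 1199.7 and 961 without, and was highest in clone 3 without ascorbic acid. Their log2 differences between the groups were -0.12 and -0.07, near the -0.09 of the brightest. Krt19 followed neither Krt8 nor Krt18 to a degree that passed. Its r was 0.394 with Krt8 (exact permutation, adjusted p = 0.331) and 0.513 with Krt18 (exact permutation, adjusted p = 0.286), each over 8 clones.

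**Figure D3:**
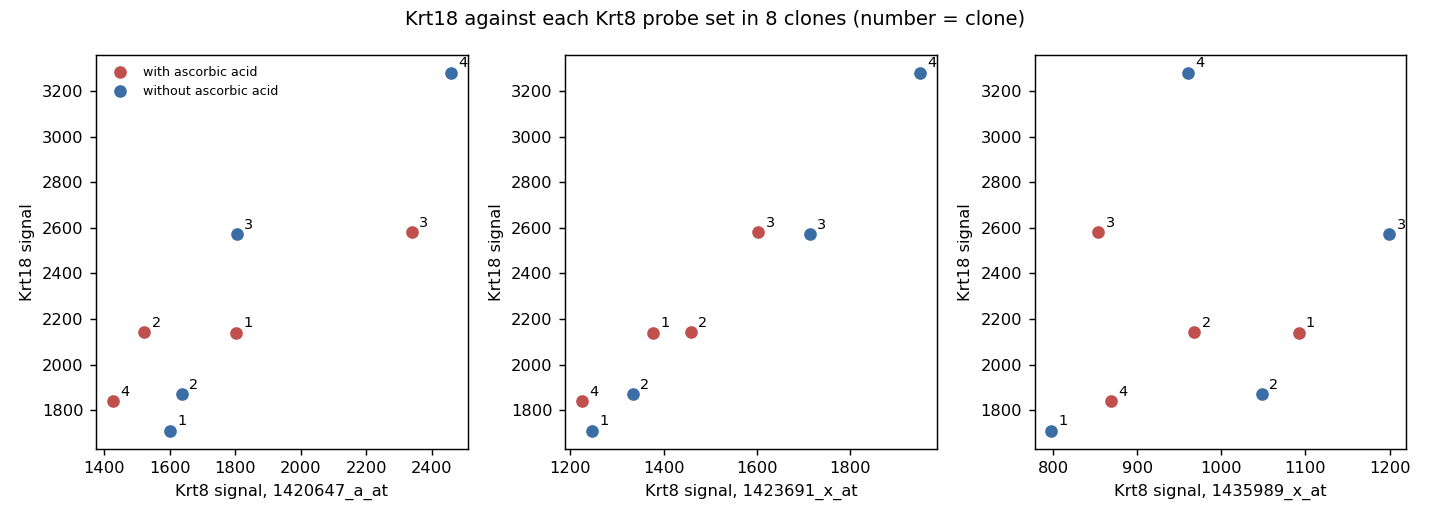
Krt18 signal against the signal of each of the 3 Krt8 probe sets in 8 clones, with the clone number beside each point and linear axes that do not start at 0. The points climb together for 1420647_a_at (r = 0.86) and 1423691_x_at (r = 0.978) and scatter for 1435989_x_at (r = 0.297).

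Krt8 and Krt18 are neighbouring protein-coding genes on mouse chromosome 15. Between them the RefSeq annotation of GRCm38.p6 has 2 long non-coding RNA genes and no protein-coding gene. Their promoter windows are shown because they are neighbours and were the keratin pair, of the 3 tested, whose correlation passed on the brightest probe sets; each runs from 250 bases before to 50 bases after the RefSeq start, 5′ to 3′ on the gene's strand. Capitals mark matches, on either strand, to 4 motifs: GGAATG for TEAD factors, TTTATG for CDX factors, AGATAA for GATA factors and GCCNNNGGC for AP-2 factors. The Krt8 window is chr15:102004293-102004592 on the minus strand and the Krt18 window is chr15:102027966-102028265 on the plus strand.
Krt8: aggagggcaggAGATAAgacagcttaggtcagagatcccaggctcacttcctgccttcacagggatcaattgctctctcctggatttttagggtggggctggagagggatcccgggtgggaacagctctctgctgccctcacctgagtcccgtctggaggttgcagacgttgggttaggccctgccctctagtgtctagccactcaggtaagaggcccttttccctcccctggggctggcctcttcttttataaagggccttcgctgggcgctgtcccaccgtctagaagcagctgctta
Krt18: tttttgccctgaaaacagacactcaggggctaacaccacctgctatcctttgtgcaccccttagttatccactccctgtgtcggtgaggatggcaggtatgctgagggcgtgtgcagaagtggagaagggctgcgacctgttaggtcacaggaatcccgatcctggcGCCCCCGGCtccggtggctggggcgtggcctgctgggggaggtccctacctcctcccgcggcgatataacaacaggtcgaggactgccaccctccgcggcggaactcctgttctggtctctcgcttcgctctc

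The Krt8 window holds 1 match to the GATA motif, 239 bases before the start, and the Krt18 window 1 match to the AP-2 motif, 83 bases before it. Among all 32851 RefSeq windows of this length, 11.2% hold the GATA and 16.6% the AP-2 motif, while 14.7% hold the TEAD and 11.9% the CDX motif. No overlap between motifs occurred in these 2 windows, and they share none of the 4 motifs. A match is a description of letters, not a bound site.

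Windows were found for 6 of the 10 genes, 7 windows in all because Elf5 has 2. The AP-2 motif occurred 3 times in the Gata3 window and 1 time in the Cdx2 window. The TEAD motif occurred in 1 Elf5 window and the CDX motif in the other, and the Eomes window held none of the 4. The windows ranged from 3 CpG dinucleotides in 1 of the Elf5 windows to 22 in Gata3, beside a median of 7 over all windows. Cdx2 had 18, Krt18 17, Eomes 10 and Krt8 6, so the dim genes had no common CpG count. Tfap2c, Tead4, Hand1 and Krt19 were not analysed for motifs.

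**Figure D4:**
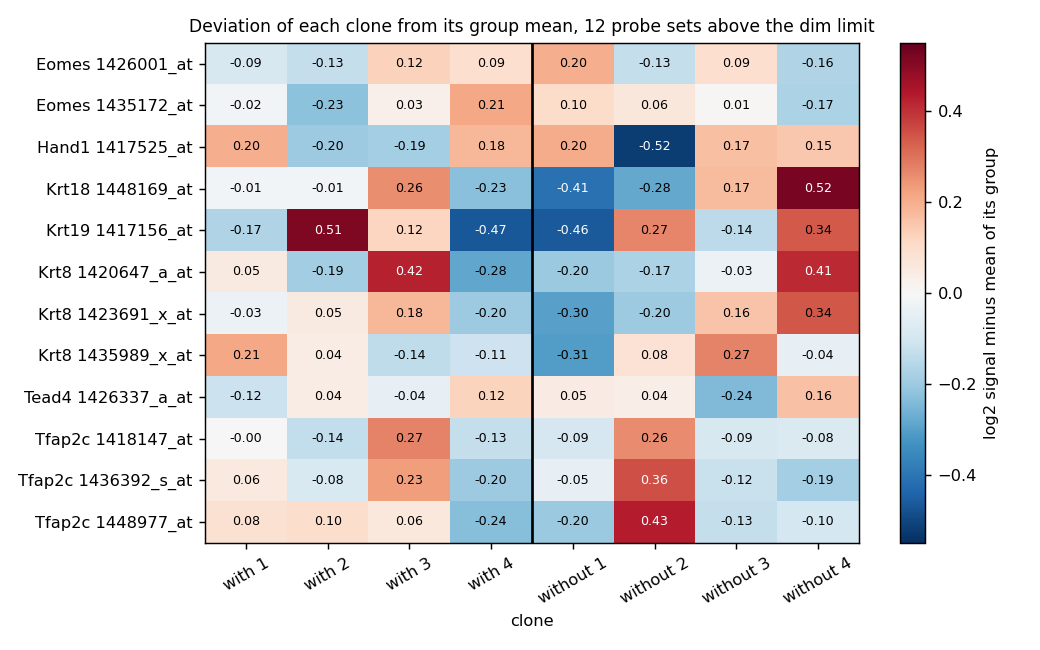
Log2 signal of each clone minus the mean of its group, for the 12 probe sets above the dim limit; columns are the 4 clones with and then the 4 clones without ascorbic acid. Clone 2 without ascorbic acid reads 0.26 to 0.43 on the 3 Tfap2c probe sets and -0.52 on Hand1, and clone 4 without reads 0.52 on Krt18 and 0.41 on the brightest Krt8 probe set.

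No clone was high in all of the measured trophectoderm genes. Clone 4 without ascorbic acid was the highest of the 8 for Krt8, Krt18 and Tead4 but the lowest of its group for Eomes. Clone 2 without it was highest for Tfap2c and lowest for Hand1. Clone 4 with ascorbic acid was lowest for Krt8, Krt19 and Tfap2c and highest for Eomes. These rankings use the brightest probe set of each gene.

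Lists of related genes, chosen with earlier results of these data known, were read in the same gene fit. Over all tested genes 6398 were above and 6731 below 0, and 5.87% had an unadjusted p under 0.05 (limma). Among 30 other trophoblast genes 17 were tested, 4 above and 13 below 0, with a median log2 difference of -0.09 and 0 past the threshold (1 at an unadjusted p under 0.05, limma). The median was -0.0468 without _s_at and _x_at probe sets and -0.129 to -0.0214 with 1 clone left out, nearest to 0 when clone 3 derived without ascorbic acid was omitted. Id2, an inhibitor of basic helix-loop-helix factors, averaged 589 ± 34.8 with and 485 ± 10.7 without ascorbic acid (SD, n = 4 per group; limma's adjusted p = 0.744). The mean of its probe sets gave -0.02 log2 in place of 0.27. Arid3a, a DNA-binding factor of trophectoderm, averaged 478 ± 24.0 with and 551 ± 51.8 without (SD, n = 4 per group; limma's adjusted p = 0.839). The trophoblast genes Rhox6, Tpbpa, Ctsq and Pparg were among 7 whose probe sets all lay below the filter.

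Upstream of TEAD4, the Hippo kinases hold YAP out of the nucleus. Of 17 Hippo genes and TEAD cofactors 16 were tested, 13 above and 3 below 0, with a median log2 difference of 0.05 and 0 past the threshold (1 at an unadjusted p under 0.05, limma). The list mixes kinases that restrain YAP with Yap1 and TEAD genes, so the count gives no direction for the pathway. Stk4, a kinase at the start of the cascade, averaged 1946 ± 74.6 with and 1756 ± 79.0 without (SD, n = 4 per group; limma's adjusted p = 0.796); the mean of its probe sets removed the difference, at -0.000515 log2. Sav1, its scaffold, averaged 1257 ± 158 with and 1067 ± 166 without (SD, n = 4 per group; limma's adjusted p = 0.839). Its log2 difference of 0.24 became 0.0778 with the mean of its probe sets and 0.144 when clone 1 derived without ascorbic acid was omitted. Among 10 targets of TEAD and YAP 6 were above and 4 below 0 (median 0.02), with 0 past the threshold and 1 at an unadjusted p under 0.05 (limma). The largest contrasts there were Ajuba, a junction protein, at 0.22 and the receptor kinase Axl at -0.24 (limma, adjusted p = 0.759 and 0.839), with Axl at -0.128 without clone 3 with ascorbic acid.

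Partners of the keratins in epithelial junctions gave 8 genes above and 13 below 0 among 21 tested, with a median of -0.02 and 0 past the threshold or at an unadjusted p under 0.05 (limma). Median centring, where the median over all tested genes was 0.0297, gave 11 above and 10 below. The tight-junction gene Cldn4 was at 0.23 and Atp1b1, a subunit of the sodium pump that fills the blastocyst cavity, at -0.19 (limma, adjusted p = 0.839 for both). Atp1b1 was at -0.0637 without _s_at and _x_at probe sets and at -0.113 without clone 1 with ascorbic acid, and Cldn4 at 0.151 without clone 1 of the other group. The summed signal of this list was highest in clone 4 without ascorbic acid, 48492, the clone that was also highest for Krt8 and Krt18. The other 7 clones gave 43313 to 45575. Within this list Epcam read 8239 in clone 4 without ascorbic acid and 5793 to 7173 in the other 7. Clone 4 without ascorbic acid also had the highest sums of pluripotency markers (116828) and of genes that restrain trophectoderm fate (80968). These lists share Pou5f1, Nanog, Sox2 and Esrrb, so their sums are not separate observations. Such sums mostly read the brightest genes, and Dppa5a alone gave 32598 of the 116828.

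Genes that restrain trophectoderm fate showed 7 above and 7 below 0 among 14 tested, with a median of 0.001 and 0 past the threshold (1 at an unadjusted p under 0.05, limma). Tet1, the 5-methylcytosine oxidase abundant in pluripotent cells, was at 0.20 (5921 ± 478 with and 5151 ± 272 without, SD, n = 4 per group; limma's adjusted p = 0.769). Pou5f1 was at -0.14, Nanog at -0.12 and Sox2 at -0.07 (limma, adjusted p = 0.839, 0.839 and 0.901). Under quantile normalization Pou5f1 was at -0.083, Nanog at -0.0805 and Sox2 at 0.0385, so the sign of Sox2 turned. The Pou5f1 and Sox2 signals may hold RNA made under doxycycline, which was not tested. All 11 pluripotency markers (10 under quantile normalization) were below 0, with a median of -0.14 (-0.083 under quantile normalization). Of the 11, 0 passed the threshold and 2 had an unadjusted p under 0.05 (limma). The named Tbx3 and Klf2 were at -0.28 and -0.30 (limma, adjusted p = 0.627 and 0.676).

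**Figure D5:**
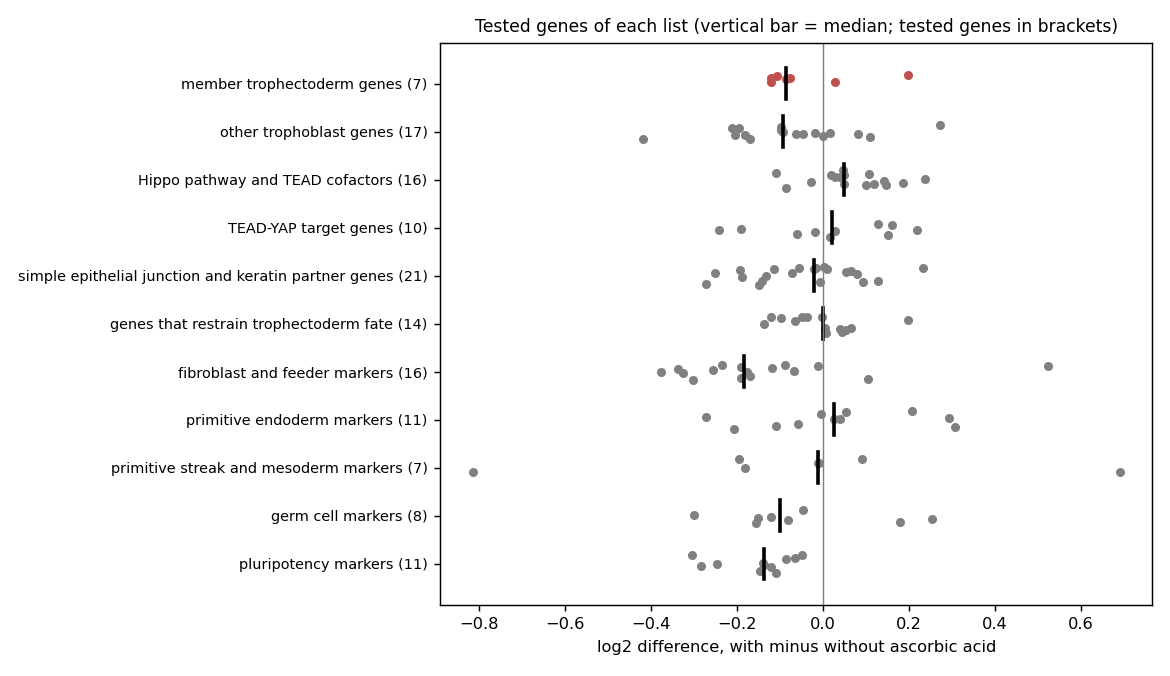
Log2 difference, with minus without ascorbic acid, of every tested gene in 11 lists; each point is a gene and the vertical bar is the list's median. The 7 tested trophectoderm genes (top row) have a median of -0.086, and the list medians run from -0.18 in fibroblast markers to 0.05 in Hippo genes.

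Several of the measured trophectoderm genes are also made by other cells, so markers of those cells were read beside them. Fibroblast and feeder markers were below 0 in 14 of 16 tested genes, with a median of -0.18 (-0.107 when clone 2 derived without ascorbic acid was omitted). Of the 16, 0 passed the threshold and 6 had an unadjusted p under 0.05 (limma), against 5.87% of all tested genes. Summed over the list, the signal ran from 42789 to 52464 in clones with and from 50469 to 53692 in clones without ascorbic acid. It was highest in clone 1 without ascorbic acid, the clone with the lowest Krt18, and lowest in clone 4 with it, the clone with the lowest Krt8 and Krt19. Postn, a matrix protein, was at -0.38 and the factor Twist1 at 0.52 (limma, adjusted p = 0.744 and 0.747). The fibroblast markers Dcn, Lum and Twist2 were below the filter.

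Primitive endoderm markers were above 0 in 6 and below 0 in 5 of 11 tested genes, with a median of 0.03, 0 past the threshold and 1 at an unadjusted p under 0.05 (limma). Their sum ran from 8624.5 to 10749 in clones with and from 10318 to 11094 in clones without ascorbic acid, and Afp, Ttr, Cubn and Sox7 lay below the filter. The sum mostly reads its brightest genes, with Sparc at a mean signal of 5061 and Col4a1 at 1664. Gata4, Gata6, Sox17 and Foxa2 averaged only 182, 184, 122 and 138. Sparc was at -0.21 and Gata6 at 0.31 (limma, adjusted p = 0.796 and 0.839); Gata6 was at 0.144 with the mean of its probe sets and at 0.166 without clone 1 with ascorbic acid.

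Mesoderm markers, which share Eomes and Hand1 with the trophoblast, were above 0 in 2 and below 0 in 5 of 7 tested genes (median -0.01, and 4 above and 3 below under either other scaling), with 0 past the threshold and 1 at an unadjusted p under 0.05 (limma). Fgf8 was at -0.81 and Lmo2 at 0.69 (limma, adjusted p = 0.823 and 0.839), and Gsc, Hand2, Evx1 and Lhx1 lay below the filter. Lmo2 was at 0.281 when clone 1 derived without ascorbic acid was omitted. The mesoderm sum was 982 to 1269 with and 1002 to 1214 without. Germ cell markers, read because of Tfap2c, were above 0 in 2 and below 0 in 6 of 8 (median -0.10), with 0 past the threshold and 1 at an unadjusted p under 0.05 (limma); Stag3 was at -0.15 and Ddx4 at 0.25 (limma, adjusted p = 0.824 and 0.839), with Ddx4 at 0.151 without clone 1 with ascorbic acid. The germ cell sum was 7252 to 8098 with and 7391 to 8014 without. It was highest in clone 1 with ascorbic acid (8098) and not in clone 2 without it (8014), the clone highest for Tfap2c. What part RNA of these other cells had in the trophectoderm values was not tested.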

How the data were processed

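The authors deposited linear signal intensity for each probe set, 1 array per clone. The submitters' processing notes name GCOS, Affymetrix operating software, without version or settings; the values show that the authors' scaling left the arrays with means of 500.002 to 500.003 after trimming 2% at each end. That scaling was kept (array medians spanned 0.199 log2). Of 45101 probe sets, 64 array controls were left out; 34945 had 1 gene symbol, 932 several and 9160 none.

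From these, log2(signal + 16) was computed, so fold changes of dim genes are understated. The gene fit left out the dimmest 40% of probe sets (mean signal below 97.5) and took the brightest probe set per gene; the probe set fit had no filter. Both used limma 3.58.1 (lmFit, eBayes with trend) in R 4.3.3; tests were two-sided and p-values were adjusted by Benjamini-Hochberg over all features. Intervals are 95%, moderated by limma. Keratin pairs were tested by exact permutation in Python 3.11.15. Drawings used matplotlib 3.10.9. Scripts were tested on simulated data. The number of arrays limits the precision.

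The members, lists and tests were chosen with earlier results of these data known. The text names every member, from each other list the genes past the threshold or else the 2 with the smallest p, the 3 genes nearest to Krt8 by pattern, and Pou5f1, Nanog and Sox2; genes below the filter were named after their values were seen. Alternatives were other scalings, pseudocounts of 1 and 64, filters, probe set choices, variance models, the clone number as a block and leaving out each clone. Promoter windows are from RefSeq, GRCm38.p6; the array annotation gave 12 listed symbols no probe set of their own, and they were not analysed here.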

Additional observations from a re-analysis of the deposited data

Results flagged for a closer look

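Of 38 groups of 4 clones, 1 for each of the 19 probe sets in each condition, 4 (10.5%) held a clone far from the other 3. Chance gives about 5%, or 1.9 groups, for normally distributed values, and linear signals were used here. The share over all probe sets of the array was not computed, so 10.5% cannot be called unusual. Clone 2 without ascorbic acid accounts for 3 of the 4. It read 755 on Tfap2c 1418147_at, where the others of its group read 587 to 594. On Tfap2c 1448977_at it read 876, against 559 to 602 in the others. It read 236 on Hand1 1417525_at, where the others read 385 to 400.2. Clone 4 with ascorbic acid read 498 on Tfap2c 1448977_at, against 614 to 632 in the others of its group. The Tfap2c probe sets of 1 gene read the same RNA, so their counts are not independent.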

How the results depend on the processing

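The members stayed short of the threshold under every alternative run: 0 genes and 0 probe sets of the set passed, and the log2 differences of the 7 tested genes reached at most 0.293 in size (limma, adjusted p of at least 0.802). Of the probe sets, the smallest adjusted p was 0.489 (limma), for Hand1 1448750_at at 1.20 without clone 4 with ascorbic acid. Over all genes the 3 calls became 1 in eBayes without the trend and 1 with robust estimation, and leaving out a clone gave 2 to 4. Over all probe sets the 11 calls became 1 without the trend, and leaving out a clone gave 8 to 14. Signs near 0 turned for single genes. Leaving out each clone in turn gave -0.0438 to 0.102 for Eomes, -0.184 to 0.0113 for Tfap2c, -0.227 to 0.0507 for Krt8, -0.215 to 0.0971 for Krt18 and -0.293 to 0.0342 for Krt19. It gave -0.36 to 0.11 for Elf5 1419555_at, -0.0813 to 0.124 for Gata3 1448886_at, -0.513 to 0.0907 for Tead4 1460683_at, -0.0664 to 0.0552 for Eomes 1426001_at, -0.195 to 0.0165 for Tfap2c 1448977_at and -0.176 to 0.0167 for Krt8 1435989_x_at. Eomes 1426001_at was at 0.00646 with quantile normalization and 0.0217 with median centring. Sox2 was at 0.0385 under quantile normalization. With a gene's probe sets averaged, Id2 was at -0.0162 and Stk4 at -0.000515, and Stk4 was at -0.00139 without _s_at and _x_at probe sets. The median of the 7 members was -0.162 to -0.000684 and that of other trophoblast genes -0.129 to -0.0214 with a clone left out. The median of primitive endoderm markers was -0.0839 with the 60% filter, which tests fewer genes, and -0.0606 to 0.0442 with a clone left out. For genes that restrain trophectoderm fate it was -0.0388 with the mean of the probe sets and -0.0364 to 0.0137 with a clone left out. The Krt8 and Krt18 correlation was 0.297 with 1435989_x_at and 0.744 to 0.892 with a clone left out. Causes were not tested where none is named. Clones with the same number in both groups did not deviate together (correlations of -0.147, -0.084, 0.012 and -0.022). With the clone number as a replicate block 3 genes and 9 probe sets passed over the whole array, and 0 of the members.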

Other observations

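The genes whose pattern over the 8 clones was most like that of Krt8, by Pearson's r of log2 signals among 13128 other tested genes, were Fbxo3, an F-box gene (r = 0.951, Spearman's rho 0.81), Ints6l, an Integrator-related gene (r = 0.947, rho 0.881), and Peg10, an imprinted gene needed for the placenta (r = 0.935, rho 0.81). Krt18 ranked 24 in this order (r = 0.86). With 8 clones and this many genes, high values arise in numbers, and no test was made. Krt19 ranked 2192, Tfap2c 4717, Tead4 6227, Hand1 6981 and Eomes 11111, the last with r = -0.408.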
